A study of Mus musculus with 4 samples.

Results

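This account covers 9 genes that make, carry, degrade or answer to retinoic acid, out of 22073 genes measured by RNA sequencing in mouse testis. The genes were taken by name: Aldh1a1, Aldh1a2, Aldh1a3, Rdh10, Dhrs3, Stra6, Stra8, Crabp1 and Cyp26b1, and each of the 9 was found in the table. All 4 libraries came from the right testis of male KM mice (Kunming, an outbred strain) sampled after maturity. The 2 hemicastrated mice had lost the left testis before puberty, and the 2 control mice were sham-operated at that time. No other treatment, genotype or exact age is given in the labels. The protocol text counts 3 mice per group where the design text counts 2, and it describes poly(A) RNA although the molecule is labelled genomic DNA. No label gives a batch or says that equal replicate numbers pair mice, and each of the libraries is taken as 1 mouse.

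Retinoic acid is made from vitamin A (retinol) inside the testis. Retinol is first oxidised to retinaldehyde and then, irreversibly, to retinoic acid, and CYP26 enzymes break the acid down. Retinoic acid acts through nuclear receptors, and in the seminiferous tubule it drives spermatogonia to differentiate and to enter meiosis, for which Stra8 is the best known target gene.

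Values are FPKM, fragments scaled to transcript length and to the number of mapped fragments, so levels of different genes can be set side by side. Their depth is unknown, and the number of libraries limits the precision. The libraries showed the genes of a testis: the sperm isozyme gene Ldhc was at 2503 to 2891 FPKM and the Leydig hormone gene Insl3 at 1232 to 1609 FPKM. The groups also differed in genes of other cells. Of 13 epididymis markers, 5 were tested and 4 fell, where 1.19% of all tested genes fell. The 13 together summed to 895 to 1220 FPKM in the controls and 3.22 to 4.28 FPKM after hemicastration. Most of the control sum came from Crisp1, at 545 and 786 FPKM, and Cd52, at 322 and 400 FPKM. The tested marker that was not called, Rnase10, was at 2.02 and 1.28 against 1.59 and 1.70 FPKM. Another 4 of the 13, among them the epididymal retinoic acid carrier Lcn5, were listed at 0 in all 4 libraries. The rest, Lcn9, Spint4, Spag11b and Cst11, were at 0 to 1.21 FPKM in the controls and 0 to 0.383 FPKM after hemicastration. Of 9 tested markers of peritubular myoid and smooth muscle cells, 5 fell, with a summed level of 294 to 322 FPKM against 218 to 241 FPKM. Most of that sum came from Actg2, which was not called, at 219 and 213 against 184 and 209 FPKM. The sum therefore says little about the 5 genes that fell. The part of these cells in the results below was not tested. In whole tissue, fewer cells of a type and less RNA per cell cannot be told apart.

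None of the 9 genes was called as changed after hemicastration. The test was limma on log2(FPKM + 1), run on the 11343 genes whose mean over the libraries was 1 FPKM or more, and genes were called at a Benjamini-Hochberg adjusted p under 0.05. Of the 9 genes 8 reached that level, and 0 of them were called in either direction by limma (2 at an unadjusted p under 0.05, against 10.5% of all tested genes). Over all tested genes the share called was 1.19% lower and 0.106% higher. Among the 8 tested genes 6 were lower and 2 higher by log2 fold change (hemicastrated minus control), and their median was -0.08, while 56.6% of all tested genes were negative and their median was -0.03. The groups did not overlap, with both hemicastrated values lower, in 4 of the 8 genes, where 24.8% of all tested genes did the same. In 0 of the 8 were both hemicastrated values higher, against 16.3% of all tested genes. With 2 libraries against 2, the smallest two-sided p that an exact permutation test of a single gene allows is 0.33, and every p below draws on limma's spread over many genes.

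**Figure D1:**
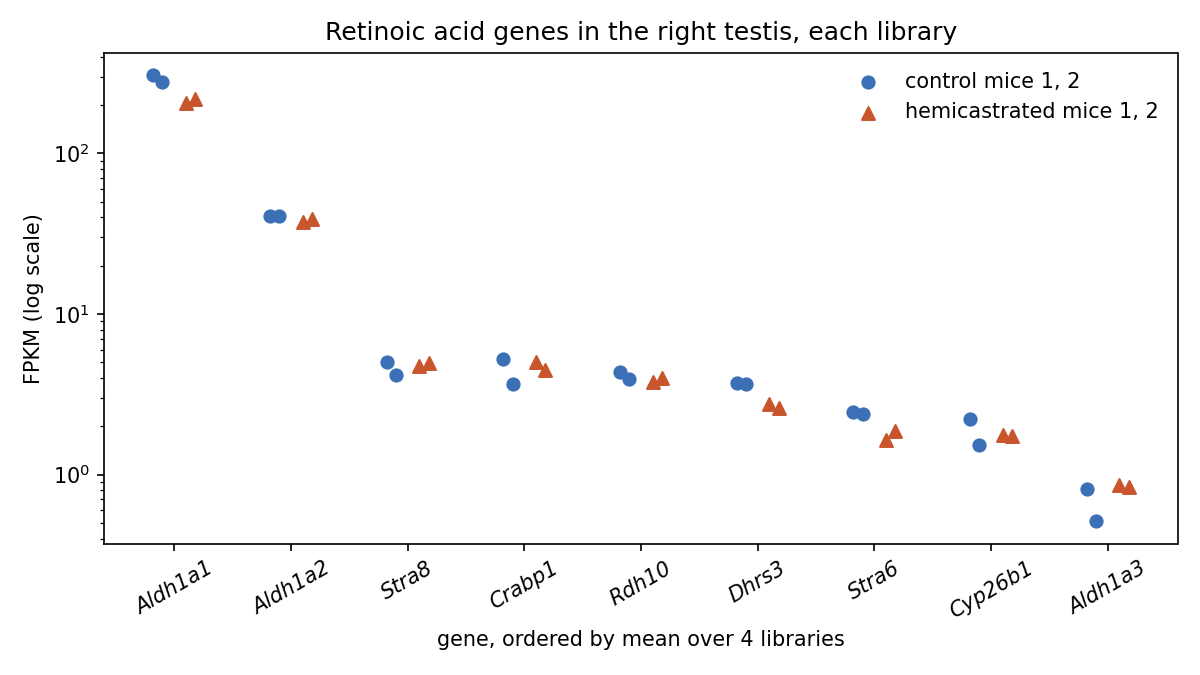
FPKM (log scale) of each of the 9 genes in each library, with circles for the control mice and triangles for the hemicastrated mice. Aldh1a1, at 206 to 307 FPKM, and Aldh1a2, near 40 FPKM, stand above the other genes. The triangles of Aldh1a1, Dhrs3, Stra6 and, by little, Aldh1a2 lie below their circles, and those of Aldh1a3 lie above.

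The 9 genes spanned a wide range of levels, and their order was nearly the same in both groups. In the controls the mean was 293.5 FPKM for Aldh1a1, 40.8 for Aldh1a2, 4.57 for Stra8, 4.47 for Crabp1, 4.16 for Rdh10, 3.69 for Dhrs3, 2.41 for Stra6, 1.88 for Cyp26b1 and 0.663 for Aldh1a3. Aldh1a1 stood 7.20-fold above Aldh1a2, which in turn stood 8.92-fold above the next gene, and neither gap was bridged by any library. Stra8, Crabp1 and Rdh10 overlapped as neighbours in the control order, as did Stra8 with Crabp1 and Cyp26b1 with Stra6 in the hemicastrated order. In the hemicastrated mice Stra6 (1.75 FPKM) and Cyp26b1 (1.75 FPKM) were level, whereas in the controls the lower Stra6 value lay above both Cyp26b1 values. By mean level, Aldh1a1 lay above 98.4% of all tested genes, Aldh1a2 above 84.1% and Cyp26b1 above 13.1%.

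The retinaldehyde dehydrogenases carry out the last, irreversible step of synthesis. Aldh1a1 (ENSMUSG00000053279, chromosome 19, 20492715 to 20643465, GRCm38) encodes the isozyme known from Sertoli and Leydig cells. Control mice showed 307 and 280 FPKM and hemicastrated mice 206 and 220 FPKM. Both hemicastrated values were below both control values, and the hemicastrated mean was 72.6% of the control mean (293.5 ± 18.6 against 213 ± 9.45 FPKM, SD, n = 2 each). The log2 fold change was -0.46 (SE 0.09, 95% interval -0.67 to -0.25), which missed the threshold after adjustment over all genes (limma adjusted p = 0.0925). The adjusted p was 0.0572 to 0.494 over 12 alternative settings, so the gene was called in none of them, and its direction was lower in each. Only 6.22% of all tested genes had a larger absolute log2 fold change. Of the 184 other tested genes at its level or above, 3 had a more negative log2 fold change: Ptgds, Guk1 and Crisp1, named after their values were seen.

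Markers of these cells were read beside Aldh1a1. Of all tested genes 56.6% had log2 fold changes under 0 (median -0.03). The Sertoli list summed to 622 to 638 FPKM in the controls and 693 to 753 in the hemicastrated mice, with 0 of 12 tested genes called and 4 of the 12 at log2 fold changes under 0 (median 0.13). Without Cst9 and Cst12, singled out after their values were seen, that sum was 503 and 487 FPKM against 535 and 473 FPKM, and the groups overlapped. The Leydig list summed to 1652 to 1771 FPKM against 1922 to 2024, with 0 of 11 called and 7 of the 11 under 0 (median -0.007). Its higher sum lay in Insl3, a Leydig hormone gene also singled out afterwards: without it the sum was 499 and 420 FPKM against 414 and 438 FPKM. The part of these cells in the Aldh1a1 difference was not tested. Aldh1a7, a close copy of Aldh1a1 on the same chromosome, was at 1.51 and 1.36 FPKM against 1.42 and 0.575 (limma adjusted p = 0.693), and no source used here says how reads that fit both copies were counted.

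Both start sites of Aldh1a1 have a promoter window (250 bases before to 50 after the start) in the RefSeq table of GRCm38.p6. The stretch before the second start is shown because it is the window of this gene that holds a retinoic acid receptor half-site. It is chr19:20601718-20601960, plus strand, which ends before the first annotated exon base of GENCODE's shorter transcript and lies in an intron of the longer ones. Capitals mark the half-site, GGGTCA on the opposite strand.
Aldh1a1 upstream: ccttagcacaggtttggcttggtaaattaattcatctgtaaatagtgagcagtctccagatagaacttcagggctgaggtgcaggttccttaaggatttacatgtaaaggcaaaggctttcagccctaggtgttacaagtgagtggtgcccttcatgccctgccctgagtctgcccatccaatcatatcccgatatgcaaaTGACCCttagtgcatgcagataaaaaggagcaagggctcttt

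Aldh1a2 (ENSMUSG00000013584, chromosome 9, 71215789 to 71296243), the isozyme of germ cells in the testis, differed little. Its level was 40.5 and 41.1 FPKM in control mice, beside 37.6 and 39.3 FPKM after hemicastration. The hemicastrated values lay just below the controls, at 94.3% of the control mean (log2 fold change -0.08, SE 0.09, 95% interval -0.29 to 0.13, limma adjusted p = 0.799), and it was -0.05 without hemicastrated 1. Pachytene spermatocyte markers, a germ cell stage in which Aldh1a2 is known, summed to 3986 to 4082 FPKM in the controls and 4059 to 4447 in the hemicastrated mice. Most of that sum came from Ldhc, at 2503 and 2549 against 2504 and 2891 FPKM. Of the 10 tested markers 0 were called and 4 had log2 fold changes under 0 (median 0.04), against 56.6% of all tested genes.

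Aldh1a3 (ENSMUSG00000015134, chromosome 7, 66390890 to 66427517), the third isozyme, stayed under 1 FPKM in each library and was not tested. Libraries of control mice held 0.814 and 0.512 FPKM and those of hemicastrated mice 0.864 and 0.837 FPKM. With no filter on low values its log2 fold change was 0.16 (SE 0.13, limma adjusted p = 0.735). Together the 3 isozymes summed to 348 and 322 FPKM in control mice and 245 and 260 FPKM after hemicastration. Aldh1a1 made up 88.1% and 87.1% of that sum in control mice and 84.3% and 84.5% after hemicastration, so in every library it was the main transcript of this step. The ratio of Aldh1a1 to Aldh1a2 was 7.57 and 6.83 against 5.49 and 5.59, with no overlap between the groups. By level, 24.8% of all tested genes did not overlap with lower hemicastrated values, and 16.3% with higher ones. The ratio was not tested, and neither gene was called.

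Among the 9 genes, Rdh10 acts in the first oxidation step and Dhrs3 in its reverse. Rdh10 (ENSMUSG00000025921, chromosome 1, 16105774 to 16133734) encodes the main enzyme that oxidises retinol to retinaldehyde in the embryo and testis. Libraries of control mice held 4.37 and 3.95 FPKM and those of hemicastrated mice 3.76 and 3.98 FPKM. The groups overlapped (log2 fold change -0.08, SE 0.13, 95% interval -0.39 to 0.23, limma adjusted p = 0.870), and under quantile normalization the difference was -0.005.

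Dhrs3 (ENSMUSG00000066026, chromosome 4, 144892827 to 144928209) encodes the reductase that turns retinaldehyde back into retinol and is itself a known retinoic acid target. Control mice showed 3.70 and 3.68 FPKM and hemicastrated mice 2.76 and 2.62 FPKM. The controls were nearly equal and both hemicastrated values lay below them, at 72.8% of the control mean (3.69 ± 0.02 against 2.69 ± 0.10 FPKM, SD, n = 2 each). The log2 fold change was -0.35 (SE 0.13, 95% interval -0.65 to -0.04), and the limma adjusted p of 0.409 missed the threshold. The ratio of Rdh10 to Dhrs3 was 1.18 and 1.07 in the controls against 1.36 and 1.52 after hemicastration.

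Stra6 (ENSMUSG00000032327, chromosome 9, 58063788 to 58153996) encodes the membrane receptor that takes retinol from its plasma carrier, known in Sertoli cells. Its level was 2.45 and 2.37 FPKM in control mice, beside 1.63 and 1.86 FPKM after hemicastration. Both hemicastrated values were lower, at 72.5% of the control mean, a share close to those of Aldh1a1 and Dhrs3 (log2 fold change -0.31, SE 0.14, 95% interval -0.64 to 0.02, limma adjusted p = 0.4995). The gene Ccdc33 overlaps Stra6 on the other strand in GENCODE, with 0 shared exon bases, and strand was not recorded by the protocol.

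**Figure D2:**
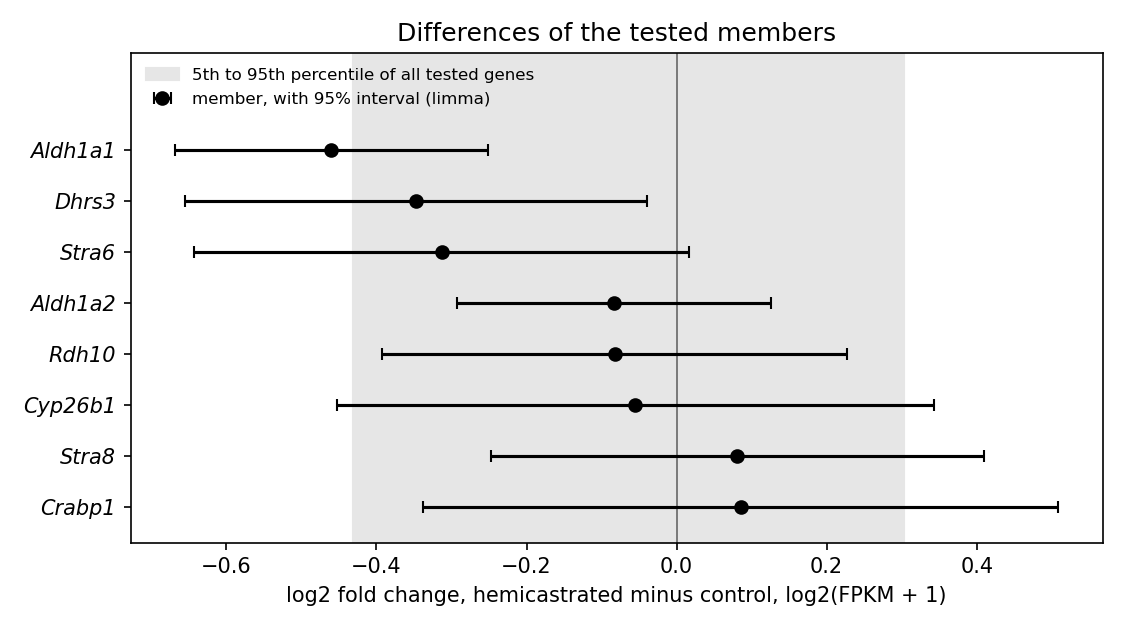
Log2 fold change (hemicastrated minus control, log2(FPKM + 1) scale) of the 8 tested genes as points, with 95% limma intervals as bars and the 5th to 95th percentile of all tested genes (-0.43 to 0.30) shaded. The intervals of Aldh1a1 and Dhrs3 lie below 0, that of Stra6 just reaches 0, and the other 5 are centred near 0.

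The cytosolic carrier, the degrading enzyme and the germ cell target showed overlapping groups. Crabp1 (ENSMUSG00000032291, chromosome 9, 54764748 to 54773110) encodes a retinoic acid binding protein of spermatogonia. Libraries of control mice held 5.27 and 3.66 FPKM and those of hemicastrated mice 5.03 and 4.46 FPKM, both within the range of the controls. Its log2 fold change was 0.09 (SE 0.17, 95% interval -0.34 to 0.51, limma adjusted p = 0.910), and it turned to -0.13 without control 2.

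Cyp26b1 (ENSMUSG00000063415, chromosome 6, 84571414 to 84593908) encodes the enzyme that degrades retinoic acid in the fetal testis, and in the adult it is known from peritubular myoid cells. Control mice showed 2.22 and 1.54 FPKM and hemicastrated mice 1.76 and 1.75 FPKM. The hemicastrated values lay between the controls (log2 fold change -0.05, SE 0.16, 95% interval -0.45 to 0.34, limma adjusted p = 0.941), and the difference turned to 0.05 under quantile normalization and 0.12 without control 1. In the same libraries 5 of 9 tested smooth muscle and myoid genes fell, against 1.19% of all tested genes. Among the 5 was Acta2, at 53.0 and 40.2 against 19.4 and 17.1 FPKM. Actg2, Myh11, Mylk and Smtn were not called, at log2 fold changes of -0.14, -0.81, -0.37 and -0.33. The part of these cells in the values of Cyp26b1 was not tested.

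Stra8 (ENSMUSG00000029848, chromosome 6, 34920163 to 34939344) encodes the factor that licenses entry into meiosis and is switched on by retinoic acid in spermatogonia and preleptotene spermatocytes. Its level was 5.002 and 4.14 FPKM in control mice, beside 4.77 and 4.98 FPKM after hemicastration. Both hemicastrated values lay within the control range (log2 fold change 0.08, SE 0.14, 95% interval -0.25 to 0.41, limma adjusted p = 0.884), and the difference was -0.03 without control 2. The interval does not reach a 2-fold change in either direction on the log2(FPKM + 1) scale, which understates changes of low genes. Among 7 tested genes of differentiating spermatogonia 0 were called. Of the 7, 6 had log2 fold changes under 0 (median -0.07), against 56.6% of all tested genes (median -0.03). The list summed to 284 to 302 FPKM in the controls and 289 to 299 in the hemicastrated mice, most of it from Dmrtb1. Without Dmrtb1, singled out after its values were seen, the sum was 62.5 and 61.7 FPKM against 53.0 and 57.0 FPKM, lower in both hemicastrated libraries. The early meiotic prophase list, which holds Rec8, summed to 590 to 594 FPKM against 647 to 729, with 4 of 16 tested genes under 0 (median 0.16), and the round spermatid list to 928 to 931 FPKM against 1037 to 1071, with 1 of 10 under 0 (median 0.18). Neither list had a called gene, and the part of these cells in the values of Stra8, Meiosin and Rec8 was not tested.

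The Stra8 window of RefSeq (GRCm38.p6) held 2 half-sites, which are shown because Stra8 is the member best known as a direct target. Capitals mark AGGTCA on the strand of the gene, and the sites begin at positions -194 and -38 from the RefSeq start. Both lie in an exon of a longer GENCODE transcript. The first stretch is chr6:34920744-34920769 and the second chr6:34920900-34920925.
Stra8 first site: tggggtgaaaAGGTCAtcttgctcct
Stra8 second site: ctggggtaccAGGTCAgttttttacc

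Retinoic acid receptors bind direct repeats of such half-sites. The RefSeq table held a window for 7 of the 9 genes, 13 windows in all, and none for Aldh1a3 and Rdh10. Repeats of the half-site AGGTCA, or of its variants AGTTCA and GGGTCA and GGTTCA in any pairing, with a spacer of 1, 2 or 5 bases were sought on both strands, and repeats could share a half-site. Of the 13 windows 0 held such a repeat, as did 0.588% of all 32851 windows, and 3 of the 13 held at least 1 half-site, as did 43.7% of all windows. These windows belonged to Aldh1a1, Stra8 (with 2 half-sites) and Stra6. The Stra6 site, AGTTCA, began at base 16 of the transcript.
Stra6 site (chr9:58134080-58134105, plus strand): aggcaggcgaAGTTCAtcttctccca

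**Figure D3:**
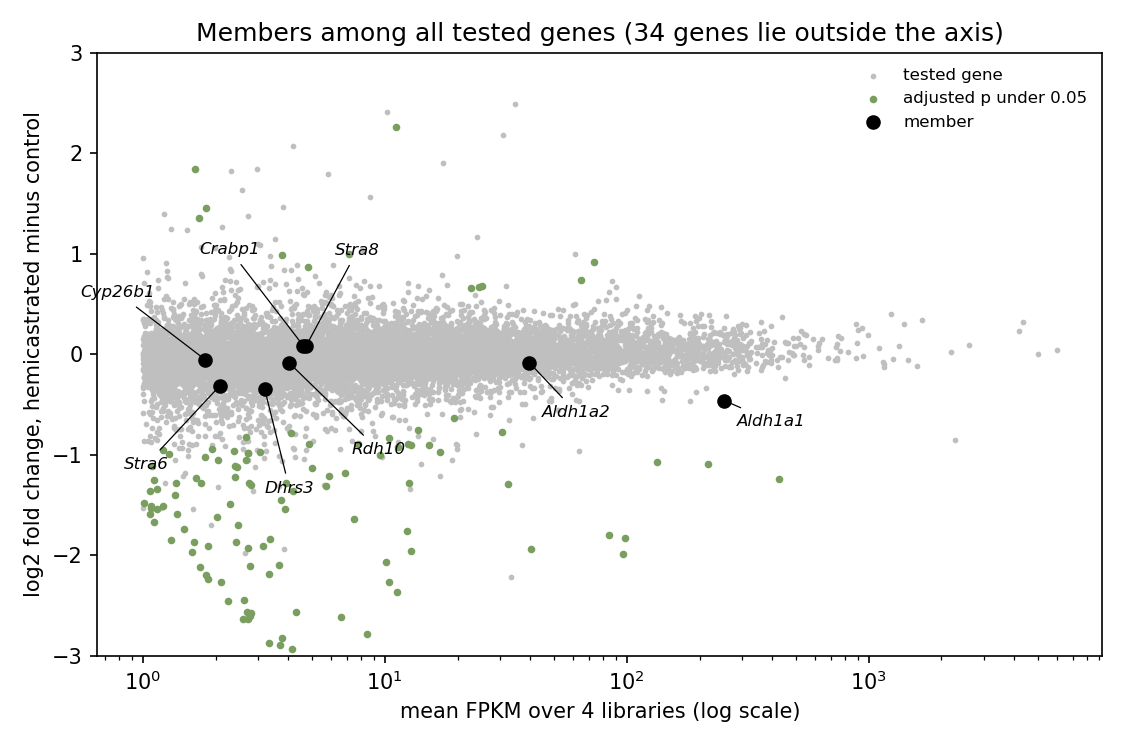
Log2 fold change (hemicastrated minus control) against mean FPKM (log scale) for all tested genes in grey, called genes in green and the 8 tested members in black. Of all tested genes 34 lie beyond the vertical axis limits of -3 and 3; Aldh1a1 sits at the lower edge of the genes at its level, and the other members sit inside the grey cloud.

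A wider list of 73 retinoid genes in 5 roles was read in the same fit. It was chosen with earlier results of these data known. Its counts therefore cannot show whether retinoid genes differ from other genes. Of these, 41 were tested, 2 fell and 0 rose (5 at an unadjusted p under 0.05, limma). Over all tested genes 1.19% fell, 0.106% rose and 10.5% had an unadjusted p under 0.05. Of the 41 log2 fold changes 30 were negative and 11 positive, with a median of -0.08. Of all tested genes 56.6% were negative, with a median of -0.03. The groups did not overlap in 15 of the 41, lower in 8 and higher in 7, against the 24.8% and 16.3% of all tested genes. Both genes that fell belong to the enzymes of retinol and retinaldehyde, of which 13 were tested.

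Akr1b7, an aldo-keto reductase known from the vas deferens and adrenal gland rather than for retinoid synthesis, fell from 33.6 and 57.8 FPKM to 0.399 and 0.236 FPKM. The hemicastrated libraries were near 0 and the controls well above (log2 fold change -5.10, SE 0.25, limma adjusted p = 0.000223). Its relative Akr1b8 was at 16.9 and 15.6 against 18.5 and 18.9 FPKM (limma adjusted p = 0.590). Adh1, the class I alcohol dehydrogenase that oxidises retinol, fell from 13.5 and 16.8 FPKM to 7.26 and 7.68 FPKM. Its groups lay apart, with both hemicastrated values at about the same level (log2 fold change -0.92, SE 0.13, limma adjusted p = 0.0328). Adh1 missed the threshold in 7 of 12 alternatives (adjusted p from 0.00943 to 0.232 over all 12), including without any 1 of the 4 libraries: 0.0828 without control 1, 0.232 without control 2, 0.0753 without hemicastrated 1 and 0.0505 without hemicastrated 2.

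Adh5, the class III enzyme of the same gene cluster on chromosome 3, was at 25.3 and 24.0 FPKM against 16.3 and 17.0 FPKM. Its log2 fold change was -0.54 (SE 0.10), and the limma adjusted p of 0.0775 missed the threshold. Adh4, which lies between Adh1 and Adh5, was at 6.34 and 4.95 against 4.98 and 4.91 FPKM, so the groups overlapped. Adh7 stayed under 1 FPKM. The aldehyde oxidase Aox3 was at 5.57 and 5.29 against 5.88 and 7.63 FPKM (limma adjusted p = 0.615). Adh4 and Adh7 were named after their values were seen, as neighbours of Adh1.

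Carriers and storage genes showed 0 calls among 8 tested (1 at an unadjusted p under 0.05, limma). The plasma retinol carrier Rbp4 measured 3.53 and 2.98 FPKM in control mice and 6.31 and 3.65 FPKM after hemicastration (log2 fold change 0.46, limma adjusted p = 0.564). Without hemicastrated 1 the log2 fold change was 0.13, and without hemicastrated 2 it was 0.78. Its plasma partner Ttr was at 2.91 and 1.27 against 5.94 and 2.45 FPKM (log2 fold change 0.72, adjusted p = 0.593), with the same library, hemicastrated 1, highest. The log2 fold change of Ttr was 0.21 without hemicastrated 1, 0.33 without control 2, 1.11 without control 1 and 1.22 without hemicastrated 2. The cellular retinol carrier Rbp7 was at 0.735 and 0.779 against 1.21 and 1.28 FPKM (log2 fold change 0.35, adjusted p = 0.453), and Scarb1, a lipoprotein and carotenoid receptor, at 51.0 and 42.3 against 35.4 and 42.5 FPKM. Crabp2, the second cytosolic retinoic acid carrier, named after its values were seen, was at 1.005 and 1.38 FPKM in the controls, 0.273 in hemicastrated 1 and listed at 0 in hemicastrated 2. Its mean was under the filter, and with no filter the adjusted p was 0.176 (limma).

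Receptors and cofactors showed 0 calls among 9 tested, and 0 of them reached an unadjusted p under 0.05 in limma. The receptor gene Rarg measured 1.11 and 1.64 FPKM in control mice against 1.28 and 0.535 after hemicastration, and Rxra 8.72 and 9.49 against 9.65 and 9.76. The coactivator Ncoa2 was at 10.2 and 10.1 against 8.84 and 9.95 FPKM and the corepressor Ncor1 at 19.7 and 18.5 against 18.6 and 18.2 FPKM. Limma adjusted p-values of these 4 genes were 0.686, 0.847, 0.826 and 0.895. The 3 further genes for degradation were under the filter, so none was tested.

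Among 11 tested response genes 0 were called, with 1 at an unadjusted p under 0.05 (limma), against 10.5% of all tested genes. Of the 11, 10 had log2 fold changes under 0 (median -0.11, range -0.45 to 0.15). Of all tested genes 56.6% were under 0 (median -0.03). Meiosin (Gm4969 in GENCODE), which encodes the partner of STRA8 in the switch to meiosis, measured 2.90 and 3.002 FPKM in control mice and 2.32 and 2.07 FPKM after hemicastration. Both hemicastrated values were below both controls, unlike those of Stra8 (log2 fold change -0.31, SE 0.13, limma adjusted p = 0.497); whether the differences of the 2 genes differ from each other was not tested. Rec8, a meiotic cohesin gene that also responds to retinoic acid, was at 25.1 and 22.9 against 25.7 and 27.9 FPKM (log2 fold change 0.15, adjusted p = 0.670). Rarres2, the gene of the chemokine-like protein chemerin, was at 11.3 and 10.5 against 8.75 and 6.77 FPKM (log2 fold change -0.45, SE 0.14, adjusted p = 0.332). Rarres1 was at 30.5 and 14.8 against 13.6 and 17.8 FPKM, and its log2 fold change of -0.43 turned to 0.07 without control 1.

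**Figure D4:**
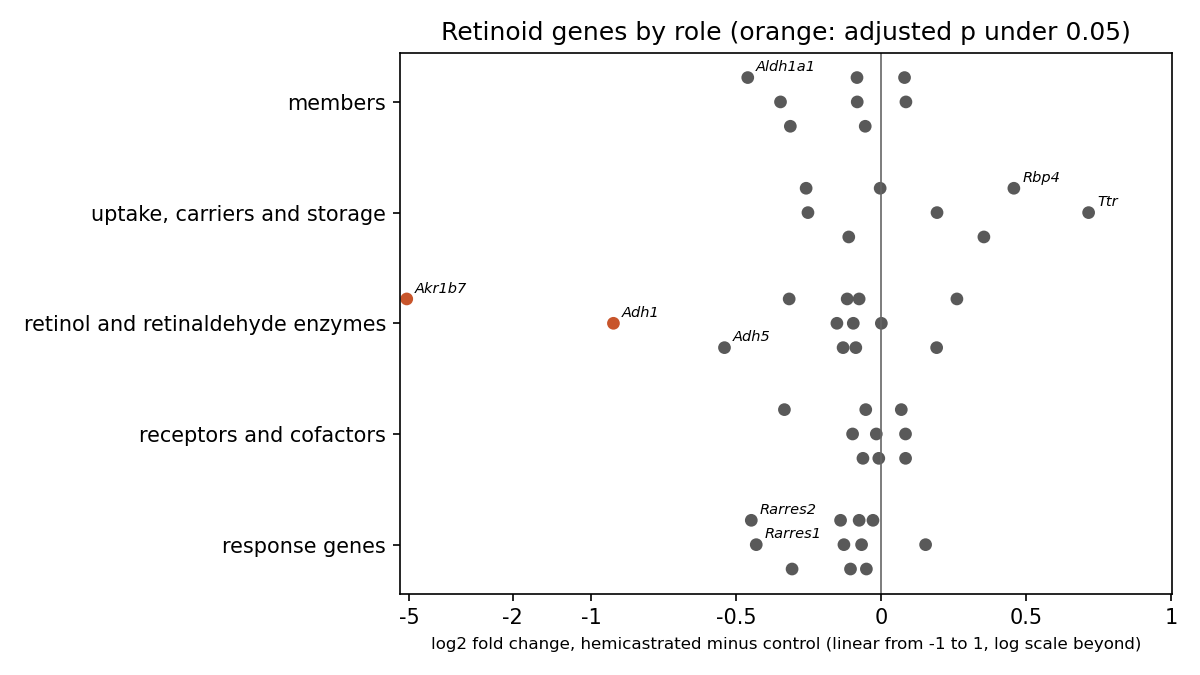
Log2 fold change (hemicastrated minus control; the axis is linear from -1 to 1 and logarithmic beyond) of the tested members and of the tested genes of the wider retinoid list, 1 point per gene, by role and with each gene drawn once; heights within a row only separate points. Akr1b7 and Adh1, in orange, are the 2 genes with an adjusted p under 0.05, and named grey genes have an absolute value above 0.4.

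The tested genes with the most similar values were found by the Euclidean distance between log2(FPKM + 1) over the 4 libraries, 2 for each tested member. Distances ran from 0.0446 to 0.353. The closest were Actb and Lrrc28 for Aldh1a1, Pomp and Ptov1 for Aldh1a2, Vcl and Pitrm1 for Rdh10, and Ctnnal1 and Ttyh3 for Dhrs3. For Stra6 they were Pla2g16 and Tmem164, for Stra8 Pgbd5 and Eral1, for Crabp1 Pak1 and Aifm1, and for Cyp26b1 Plxnc1 and Tnip1. The distance mostly reflects the level: Actb, at 276 and 239 against 231 and 235 FPKM, had a log2 fold change of -0.14. Ctnnal1, at 3.67 and 3.56 against 2.73 and 2.48 FPKM, had one of -0.36, close to that of Dhrs3. None of these 16 genes was called.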

How the data were processed

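Poly(A) RNA was selected and reverse transcribed with random primers, with no step that marks the strand, per the labels' protocols. TopHat2 2.0.11 and Cufflinks 2.2.1, with the build GRCm38, are listed without roles in the submitters' processing notes, and which gene annotation was used is not stated there. Deposited values are FPKM per gene and library as made by the authors, per the file headers, so depth and counting error are unknown. Symbols and positions came from GENCODE M21 (21806 of 22073 identifiers named), and Meiosin was matched through RefSeq synonyms. Genes averaging 1 FPKM or more were tested with limma 3.58.1 in R 4.3.3 on log2(FPKM + 1), which understates changes of low genes, with a variance trend, no covariate, two-sided p-values and Benjamini-Hochberg adjustment over all tested genes. The code was tested on simulated data. Each library was taken as coming from a separate mouse, and nothing says more of how the libraries are related. All 9 members are named. From the wider lists, called genes and up to 4 further genes per role with the smallest p are named. The members and lists were chosen with earlier results of these data known. The 12 marker lists served as checks: those of undifferentiated spermatogonia (summing to 15.8 to 16.7 FPKM against 14.1 to 14.2), endothelium, macrophages and erythroid cells had 0 called genes among 3, 3, 8 and 3 tested. Alternatives were another pseudocount (0.1), filter (none, or a mean of at least 5 FPKM), quantile normalization, TPM, no trend, robust hyperparameters, a replicate block and leaving out each library.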

Additional observations from a re-analysis of the deposited data

How the results depend on the processing

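In none of the 12 alternatives was a member called, in either direction (limma), where it could be tested; at a minimum mean of 5 FPKM only Aldh1a1 and Aldh1a2 were. In 86 of 90 refits the members kept their direction. The exceptions were Cyp26b1 under quantile normalization (0.047), and refits that left out 1 library, over which the log2 fold change was -0.031 to 0.192 for Stra8, -0.129 to 0.300 for Crabp1 and -0.225 to 0.115 for Cyp26b1, and for Rarres1, outside the members, -0.929 to 0.067; the cause was not tested. Of the wider list, 1 gene was called lower with no filter, under quantile normalization, without the trend and without any 1 library (1 to 1), in place of 2. Over all genes, 12 rose; 3 did with no filter, 7 at a minimum mean of 5 FPKM, where fewer were tested, and 0 to 26 without 1 library (0 without control 2, 4 without control 1). The 135 genes that fell became 63 at that minimum and 78 to 156 without 1 library. Deviations from the group means were hardly correlated over genes between libraries with the same replicate number (0.0137). With 2 libraries per group this cannot decide whether equal numbers pair mice. With a replicate block 30 genes rose, 167 fell and 0 members were called. A mean FPKM without counts sets no detection limit for the low members.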

Other observations

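The 3 further degradation genes stayed under 1 FPKM in each library: Cyp26a1 measured 0.435 and 0.262 FPKM in control mice and 0.387 and 0.751 FPKM after hemicastration, Cyp26c1 at 0.0398 and 0.0475 against 0.115 and 0.1004, and Cyp2s1 at 0.294 and 0.216 against 0.219 and 0.214. Of the wider list 3 genes, Lcn5, Rdh19 and Dhrs9, were listed at 0 in all 4 libraries. Rdh11, a microsomal retinaldehyde reductase, measured 87.8 and 74.8 FPKM in control mice and 70.9 and 77.1 FPKM after hemicastration, far above Rdh10 in each library. These genes were named after their values were seen, and no explanation was sought for them.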
